A study of Mus musculus with 8 samples.

Results

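The genes described here are 48 genes of DNA replication and nucleotide supply, from the proteins that license replication origins to the enzymes that make deoxynucleotides. They were chosen by name as a functional set, though with earlier results of these data known, and found on the array by the RefSeq accession of each probe. All 48 were measured, by 54 of the 55681 probes, and all 48 passed the filter on dim probes. They are thus 48 of the 26247 features tested, where a feature is a gene or, for a probe without a gene name, the probe's accession. Expression was measured with 1-colour microarrays in 4 groups of 2 arrays, 8 in all, to ask how a clone differs from its parental line with and without retinoic acid (RA), a vitamin A derivative that drives neuroblastoma cells towards a neuronal form. The parental line is N18TG2, a mouse neuroblastoma line grown as an established culture. The clone, 2/4, is an N18TG2 derivative that expresses ChAT, or choline acetyltransferase, which synthesises acetylcholine. The 4 groups are untreated parental cells, parental cells with RA, untreated clone cells and clone cells with RA. Cells were routinely grown in 10% serum, the RA dose was 1 µM in a differentiation medium of 1% serum, and G418 (200 µg/mL) was used to maintain the clone. How long RA was applied, and which medium the untreated cells had, is not in the labels, so RA and reduced serum cannot be told apart here. The 2/4 line is 1 clone, so ChAT, G418 selection and clonal variation cannot be told apart either.

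DNA is copied once in each cell cycle. The origin recognition complex and its partners load the MCM helicase on DNA, kinases and the GINS proteins activate it, polymerases copy the strands behind it, and a sliding clamp with its loader holds the polymerases on. Ribonucleotide reductase and other enzymes supply the deoxynucleotides. Many of these genes are transcribed as cells enter S phase, largely under E2F transcription factors, so that their messages are abundant in dividing cells and scarce in resting or differentiated ones. A lower level in a bulk culture can come from fewer cells in S phase or from less RNA per cell, and these cannot be told apart here.

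The arrays lay on 1 slide with 1 scan time. The untreated parental and clone RA arrays lay in row 2 of the slide and the others in row 1, which means that the row differs along with RA inside either line and along with the line at either treatment, and that it cannot be told apart from the difference between the lines in their RA response. It cancels in the line difference averaged over both treatments. All parental arrays lay in slide columns 1 and 3 and all clone arrays in columns 2 and 4. Slide column therefore cannot be told apart from the line in any comparison of the lines, the average included. Clone RA replicate 1 stood apart: 72.13% of its spots were well above background, against 48.65% to 63.28% on the other 7 arrays. The replicates of the clone RA group correlated at r = 0.9625 across genes, and those of the other groups at 0.983 to 0.9872, where genes are not independent replicates. Whether a group's arrays are of separate cultures is not in the labels, so the p-values may measure technical spread only. The extraction protocol names hippocampus, although every sample is labelled as the cell line. Of 10 sympathetic neuroblast markers, 10 were above background on all 8 arrays. Their summed linear level was 113 to 158 in untreated parental, 74.5 to 84.8 in parental RA, 82.2 to 90.7 in untreated clone and 126 to 167 in clone RA cells. In the clone against the parental line with RA, 4 of the 10 rose and 2 fell, with a median of 0.82. Of all features 12.9% rose and 10.2% fell there. Of 9 hippocampal neuron markers 2 were on all 8 (Wfs1 and Camk2a) and 4 on none (Prox1, Neurod6, Neurod2 and Neurod1). The summed linear level of the hippocampal list was 13.0 to 13.5 in untreated clone cells and 4.00 to 5.60 in the other groups. For the 6 fibroblast markers, of which 2 were above background on all 8 arrays, it was 0.811 to 1.17 in untreated parental, 0.579 to 0.724 in parental RA, 1.08 to 1.22 in untreated clone and 1.23 to 1.41 in clone RA cells. For the 6 blood vessel and microglia markers, 3 of them above background on all 8 arrays, it was 0.366 to 0.472 in parental RA cells and 1.19 to 1.95 in the other groups, and for the 6 glial markers, 2 of them on all 8 arrays, it was 0.519 to 1.27 over all groups. Between the lines with RA, 2 of 5 tested fibroblast markers rose and none fell, with a median of 2.47. Among 4 tested blood vessel and microglia markers 1 rose and 1 fell, with a median of 1.51. Among 3 tested hippocampal markers 1 rose and none fell (median 1.10), and none of 4 tested glial markers was called (median -0.07). The part of these markers in the results was not tested.

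**Figure D1:**
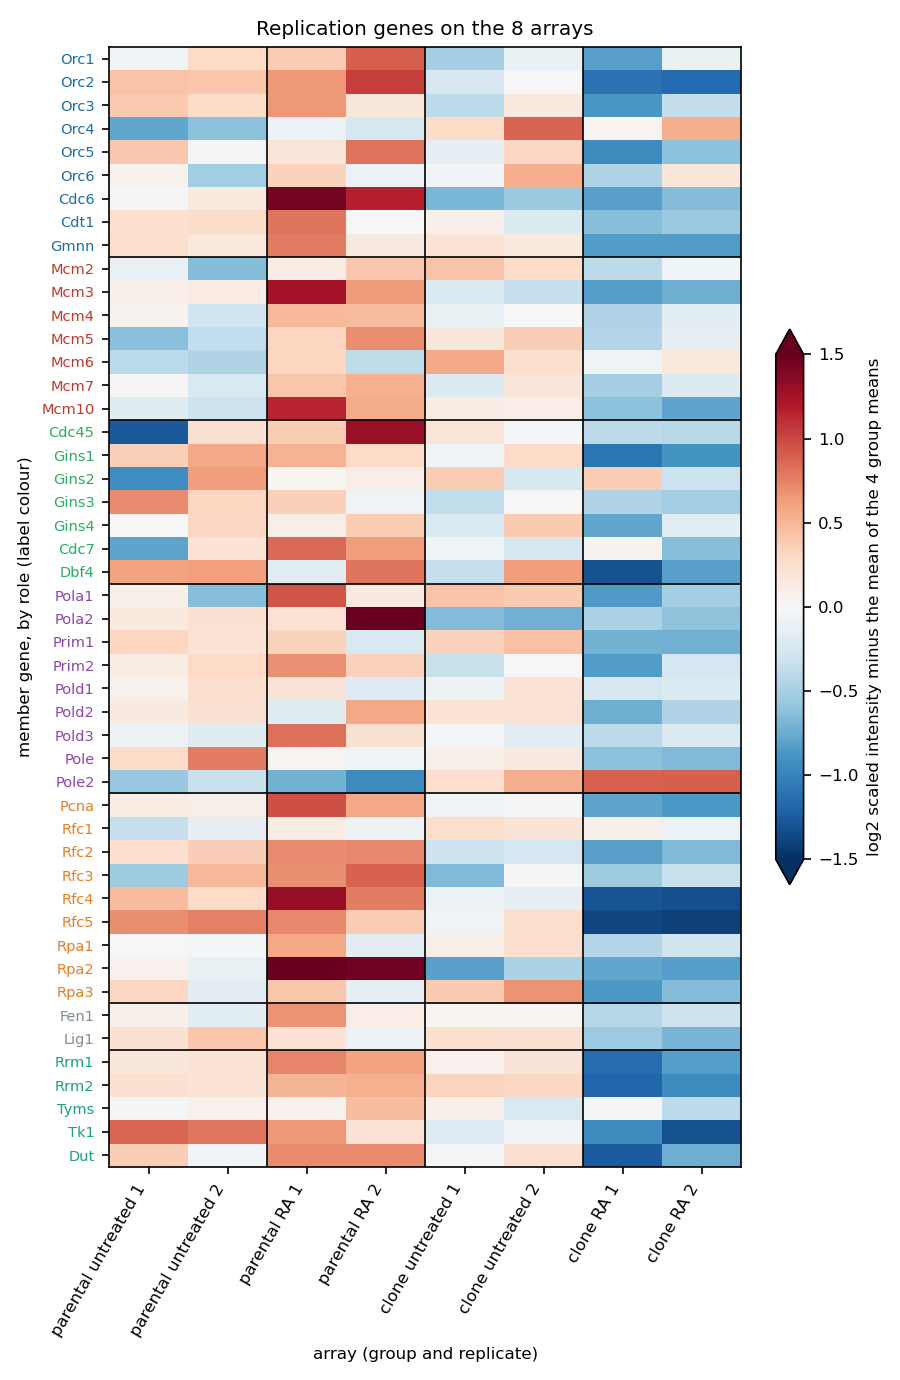
Heat map of the 48 genes (rows, ordered by role, which the label colours mark) on the 8 arrays (columns), with colour giving the log2 scaled intensity minus the mean of that gene's 4 group means. The clone RA columns are mostly blue, with a median of -0.67 and -0.54, and the parental RA columns mostly red, with a median of 0.50 and 0.39.

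Replication genes were highest in the parental cells given RA and lowest in the clone cells given RA. Levels are log2 of the processed intensity minus the array's 75th percentile, and a difference of 1 on this scale is a doubling. Relative to each gene's mean over the groups, the median of the 48 genes was 0.09 and 0.20 on the untreated parental arrays, 0.50 and 0.39 on the parental RA arrays, -0.03 and 0.15 on the untreated clone arrays, and -0.67 and -0.54 on the clone RA arrays. The clone RA arrays were the lowest and the parental RA arrays the highest, with no overlap with the untreated arrays of either line. The median of all 26247 features on the same scale lay between -0.12 and 0.20, and its highest value was on clone RA replicate 1.

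With RA, the clone held less message than the parental line for most of the set. Of the 48 genes, 16 fell and 1 rose in the clone at an adjusted p under 0.05 (limma, Benjamini-Hochberg over all features), where 10.2% of all features fell and 12.9% rose, 23.2% in all. The genes that fell are 33.3% of the set. They were the helicase subunit gene Mcm3, the clamp gene Pcna, the clamp loader genes Rfc2, Rfc4 and Rfc5, the single-strand binding gene Rpa2, the licensing genes Orc2, Orc5, Cdc6 and Gmnn, and the nucleotide genes Rrm1, Rrm2, Tk1 and Dut, with Mcm10 and Gins1. Their levels were 2.43-fold to 5.07-fold lower, and the 1 gene that rose was Pole2, a DNA polymerase epsilon subunit, which was 3.3-fold higher. At an unadjusted p under 0.05, 34 genes were lower and 1 higher, against 16.5% and 20.1% of features; the 34 became 18 without clone RA replicate 1 and 23 to 31 without any other array. Over the whole set 45 of 48 differences were negative, with a median of -1.03 against 0.11 for all features. Both clone arrays lay below both parental arrays for 42 of 48 genes, 87.5% of the set, and above them for 2, against 27.9% and 30.9% of features. Without clone RA replicate 1, 15 of the 17 calls were kept, the median was -0.79, and the calls of Gmnn (-1.28, adjusted p = 0.0631) and Orc5 (-1.11, adjusted p = 0.124) were lost. In a fit on the 4 RA arrays alone, 6 were called, 1 higher and 5 lower. Of all features 10.1% were called in that fit, 63.4% of them higher.

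Without RA no gene of the set passed the adjusted threshold between the lines. None of the 48 genes was called by limma in the untreated clone against the untreated parental line, where 9.84% of features were (6.14% higher and 3.70% lower). That share was 4.00% or 4.27% without untreated parental replicate 1 or 2 and 4.02% or 3.08% without untreated clone replicate 1 or 2. At an unadjusted p under 0.05, 5 genes were higher and 3 lower, which is 10.4% and 6.25% of the set against 14.6% and 9.12% of features. The median difference was -0.06, against 0.11 for all features, and 27 of 48 differences were negative. Clone arrays lay wholly above the parental arrays for 12 genes and wholly below for 17, or 25% and 35.4% of the set, against 36.1% and 24.0% of features. The smallest adjusted p was 0.0567, for Orc4, an origin recognition gene that stood 1.27 higher in the clone; it was called, as the only gene, without clone RA replicate 1 (adjusted p = 0.0384) or 2 (0.0423). The 16 genes called lower with RA had untreated differences of -0.95 to 0.36, none of them called.

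**Figure D2:**
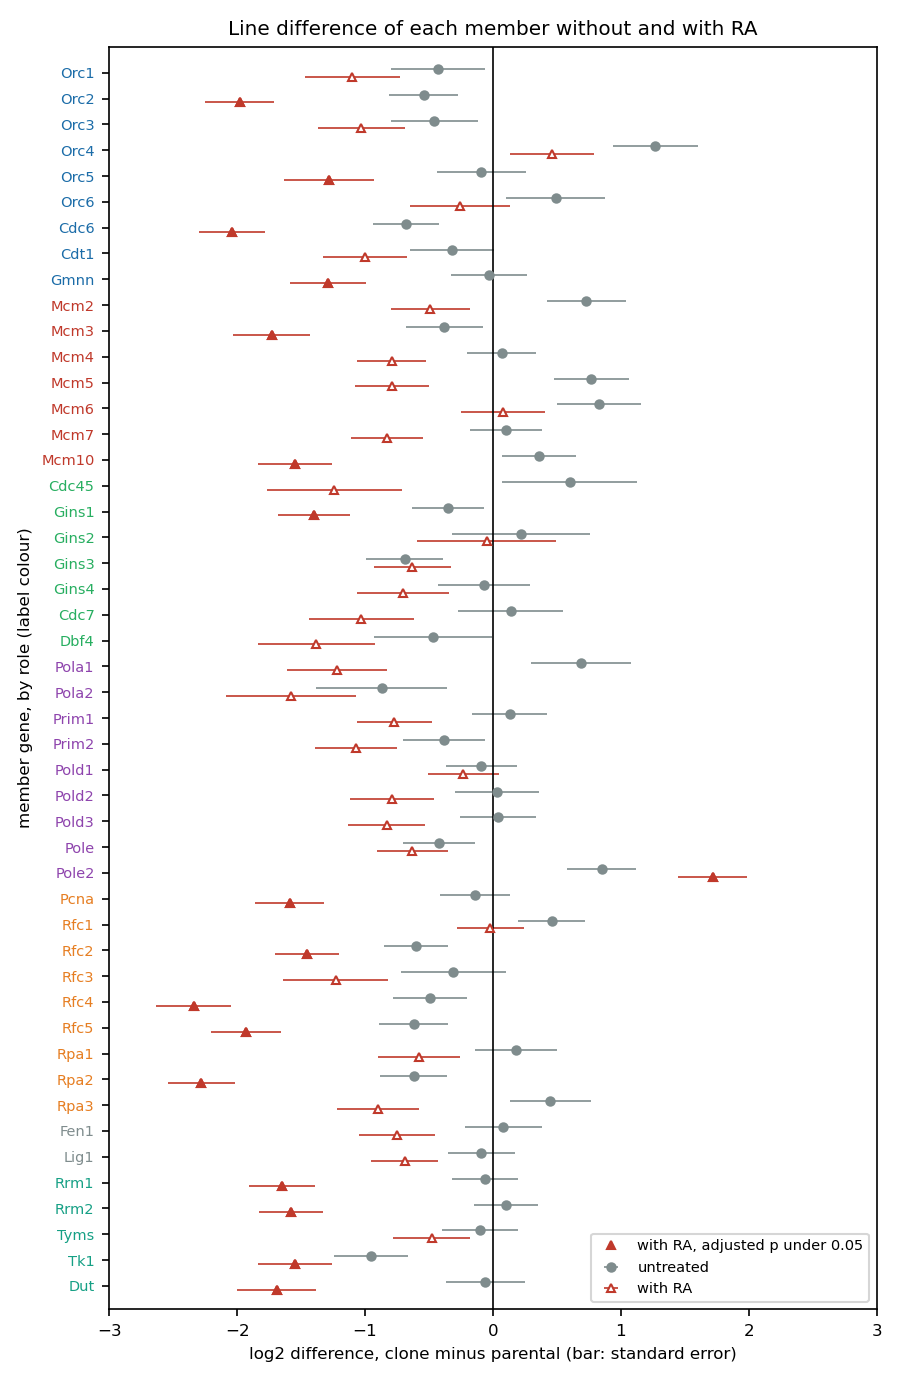
The log2 difference between clone and parental line for each of the 48 genes, ordered by role, untreated (grey circles) and with RA (red triangles, filled where the adjusted p is under 0.05), with bars of 1 standard error from the limma fit. The 17 filled triangles are 16 genes lower and 1, Pole2, higher in the clone with RA, while the grey circles lie between -0.95 and 1.27.

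In the parental line, RA went with higher levels of much of the set, but no gene passed the adjusted threshold. Of 48 differences, 38 were positive, with a median of 0.38 against 0.02 for all features. RA arrays lay wholly above the untreated arrays for 27 genes and wholly below for 4, or 56.2% and 8.33% of the set, against 23.4% and 20.8% of features. limma called 0 of 48, where 1.13% of features were called (0.541% higher and 0.591% lower), and at an unadjusted p under 0.05 there were 8 higher and 0 lower, against 7.06% and 7.36% of features. The 8 became 4 without untreated parental replicate 1 and 5 without untreated clone replicate 1 or 2, and no feature of any kind was called without untreated parental replicate 1 or 2. The largest difference by the probes used was that of Rpa2, 1.50 ± 0.26 (SE; adjusted p = 0.0556), which was called without clone RA replicate 1 (adjusted p = 0.0406) or 2 (0.0464).

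In the clone the differences ran the other way. With RA, 46 of 48 genes had negative differences, with a median of -0.52 against 0.02 for all features. RA arrays lay wholly below the untreated arrays for 34 genes, 70.8% of the set, and wholly above for 2, against 28.7% and 24.2% of features. Only Rrm2 and Rfc5 fell at an adjusted p under 0.05, 2 of 48 where 2.05% of features fell and 2.58% rose (4.63% in all), and at an unadjusted p under 0.05 there were 19 lower and 0 higher, against 10.7% and 10.9% of features. The 19 became 9 without untreated clone replicate 2 and 11 without untreated clone replicate 1 or clone RA replicate 1. No feature of any kind was called for RA in the clone without untreated clone replicate 1 or 2, with no filter on dim probes, or in a fit on the clone arrays alone. Of the features called here 55.7% were higher, and 40.6% with another background correction (normexp). Both calls were lost without any 1 of 5 arrays: clone RA replicate 1, either untreated clone array or either untreated parental array. The differences themselves moved less. Without clone RA replicate 1, untreated clone replicate 1 and untreated clone replicate 2 in turn, Rrm2 (-1.39) stood at -1.26, -1.37 and -1.40. Rfc5 (-1.49) stood at -1.50, -1.65 and -1.33. Without either untreated parental array, which are not in this comparison, they stayed at -1.39 and -1.49.

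The RA responses of the lines share no arrays, and 37 of 48 genes had a positive difference in the parental line and a negative one in the clone. The reverse held for 1 gene, Pole2, while 9 were negative in both lines and 1 positive in both. Arrays that did not overlap in either line, higher with RA in the parental line and lower in the clone, were seen for 19 of 48 genes, 39.6% of the set, where 4.37% of features showed this. The reverse pattern was seen for 1 gene, Pole2, where 3.78% of features showed it. In the test of the difference between the responses, limma called 0 of 48 genes, where 0.206% of features were called (0.122% higher and 0.0838% lower). At an unadjusted p under 0.05, 20 genes had a lower response in the clone and 0 a higher one, against 6.54% and 7.33% of features, and the median of the difference was -0.88 against -0.02. The smallest adjusted p was that of Rrm2, -1.68 ± 0.36 (SE; adjusted p = 0.120). Slide row cannot be told apart from this difference.

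**Figure D3:**
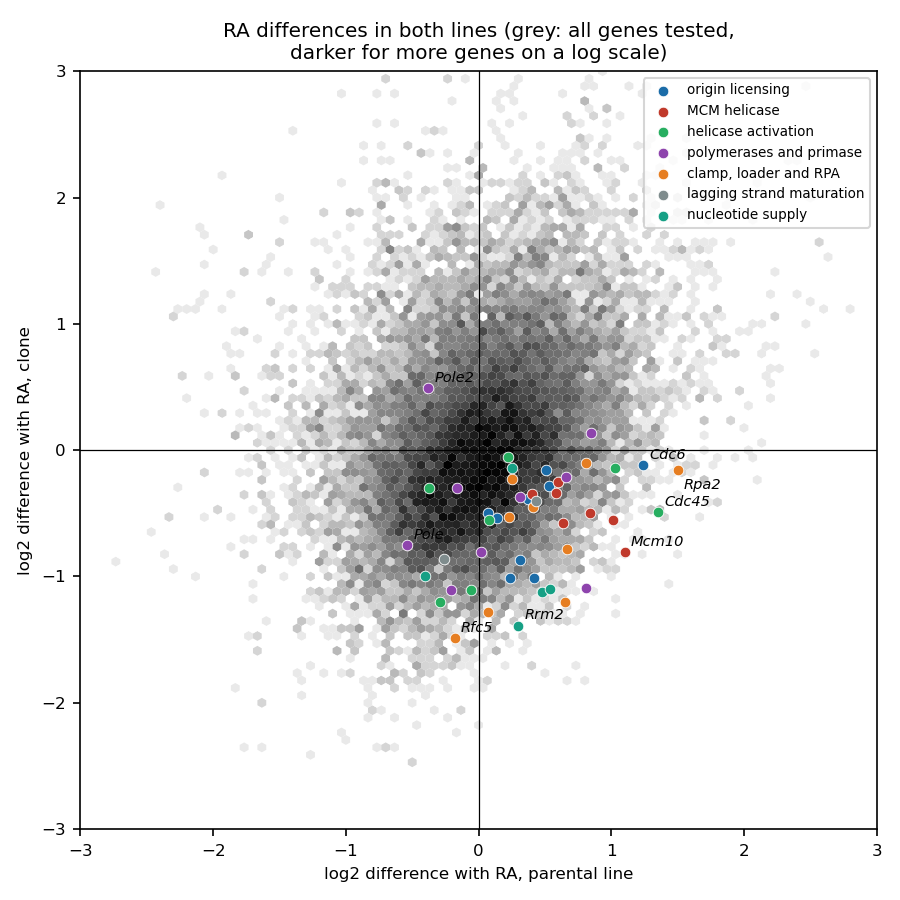
Scatter plot of the log2 difference with RA in the parental line (x axis) against that in the clone (y axis), with the 48 genes coloured by role over all features in grey; both axes stop at 3 in either direction, so features beyond that are not drawn. Of the 48 genes, 37 lie at the lower right, positive in the parental line and negative in the clone, and Pole2 alone lies in the upper left.

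Slide row cancels in the average over both treatments, while slide column still goes with the line. There 14 of the 48 genes were lower and 2 higher in the clone at an adjusted p under 0.05, against 11.6% and 16.1% of features (27.7% in all). The lower genes are 29.2% of the set. At an unadjusted p under 0.05, 25 were lower and 2 higher, against 17.3% and 23.3% of features, and the median difference was -0.56 against 0.12 for all features. Rpa2 stood at -1.45 ± 0.19 (SE; adjusted p = 0.00175), Cdc6 at -1.36 ± 0.19 (SE; adjusted p = 0.00224) and Rfc4 at -1.42 ± 0.20 (SE; adjusted p = 0.00270). Pole2 stood at 1.29 ± 0.19 (SE; adjusted p = 0.00320) and Orc4 at 0.86 ± 0.23 (SE; adjusted p = 0.0316), while the other probe of Orc4 gave 0.40 and its call was lost with the mean of probes. Of the 16 calls, 9 held without any array in turn. The other 7 (Orc4, Gins1, Pola2, Pcna, Rrm1, Rrm2 and Dut) were lost without 2 to 6 of the arrays, at adjusted p of 0.0514 to 0.117, and there were 10 calls without untreated clone replicate 1 or without replicate 2.

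Promoter windows from RefSeq (build GRCm38.p6, from 250 bases before to 50 after each start) were at hand for 40 of the 48 genes, and missing were Mcm4, Gmnn, Gins1, Gins2, Gins4, Prim2, Pole and Rfc2. The E2F motif, searched as TTTCCCGC or TTTGGCGC on both strands and with no match of either overlapping the other, was found in 13 of 40, or 32.5%, against 1.8% of the 27025 genes with a window. TTTCCCGC was found for 20% of these 40 genes and 1.24% of all genes with a window, TTTGGCGC for 15% and 0.585%, the NF-Y box CCAAT for 57.5% and 41.1%, and the cell cycle element TTTGAA for 17.5% and 20.2%. The genes with the E2F motif were Mcm3 and Mcm6 (2 sites each), Mcm5, Mcm7, Orc3, Cdc6, Cdt1, Gins3, Pola1, Pold1, Pold3, Pole2 and Rfc3. A match is a description of the letters, not a binding site. The windows printed here belong to genes that the results turn on, the licensing factor gene Cdc6 and the helicase gene Mcm3, which hold the motif and were lower in the clone with RA, Pole2, which holds it and was higher, and Rrm2 and Rpa2, which were lower and have no match in these windows. Capitals mark the E2F motif, and GCGGGAAA and GCGCCAAA are its letters read on the other strand.
Cdc6 promoter, chr11:98907901-98908200, plus strand: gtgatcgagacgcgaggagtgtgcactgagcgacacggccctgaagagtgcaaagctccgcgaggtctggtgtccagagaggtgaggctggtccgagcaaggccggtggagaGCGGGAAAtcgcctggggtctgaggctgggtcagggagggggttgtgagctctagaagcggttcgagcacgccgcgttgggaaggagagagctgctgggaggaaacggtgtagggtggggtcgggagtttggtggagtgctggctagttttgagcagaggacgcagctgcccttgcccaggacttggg
Mcm3 promoter, chr1:20820263-20820562, minus strand: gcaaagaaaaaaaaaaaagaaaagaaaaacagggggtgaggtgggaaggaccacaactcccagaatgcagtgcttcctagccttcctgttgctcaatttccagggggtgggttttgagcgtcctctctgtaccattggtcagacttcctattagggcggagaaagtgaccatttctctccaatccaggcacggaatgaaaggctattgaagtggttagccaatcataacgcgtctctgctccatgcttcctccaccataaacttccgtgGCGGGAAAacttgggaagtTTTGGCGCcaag
Pole2 promoter, chr12:69228141-69228440, minus strand: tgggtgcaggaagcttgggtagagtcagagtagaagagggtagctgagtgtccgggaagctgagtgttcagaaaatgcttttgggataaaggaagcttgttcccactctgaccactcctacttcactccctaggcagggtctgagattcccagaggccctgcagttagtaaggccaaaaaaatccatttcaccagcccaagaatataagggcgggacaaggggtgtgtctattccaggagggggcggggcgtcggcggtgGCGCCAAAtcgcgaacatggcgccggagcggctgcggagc
Rrm2 promoter, chr12:24708004-24708303, plus strand: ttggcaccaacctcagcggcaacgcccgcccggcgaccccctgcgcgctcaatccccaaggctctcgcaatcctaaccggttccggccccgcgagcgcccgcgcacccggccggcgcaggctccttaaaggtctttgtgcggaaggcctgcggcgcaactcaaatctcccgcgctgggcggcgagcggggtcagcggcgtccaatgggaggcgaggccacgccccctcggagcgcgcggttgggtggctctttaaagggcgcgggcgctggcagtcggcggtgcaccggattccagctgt
Rpa2 promoter, chr4:132768110-132768409, plus strand: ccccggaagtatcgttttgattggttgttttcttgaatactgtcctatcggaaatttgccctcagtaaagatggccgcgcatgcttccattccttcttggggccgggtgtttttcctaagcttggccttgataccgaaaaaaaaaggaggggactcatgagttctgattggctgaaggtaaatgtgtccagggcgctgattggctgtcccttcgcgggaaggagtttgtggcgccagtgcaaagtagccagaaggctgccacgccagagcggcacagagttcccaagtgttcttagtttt
Counted from the start site, the first base of the motif lay at -138 in Cdc6, at 20 and 39 in Mcm3 and at 11 in Pole2. CCAAT, on either strand, began at -117, -72 and -32 in Mcm3, at -50 in Rrm2 and at -231, -84 and -52 in Rpa2. The 13 genes with the motif and the 27 without it had median differences of the same sign. Their median differences were -0.83 and -1.24 between the lines with RA, 0.58 and 0.42 with RA in the parental line, and -0.34 and -0.81 with RA in the clone; these groups of genes were not tested against each other.

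The licensing genes encode the origin recognition complex (Orc1 to Orc6), the loading factors Cdc6 and Cdt1, and geminin (Gmnn), which blocks Cdt1 after origins have fired. With RA, 4 of 9 fell in the clone against the parental line and none rose, with a median of -1.10, where 10.2% of all features fell. Cdc6 read -0.39 and -0.22 on the untreated parental arrays, 1.07 and 0.80 on the parental RA arrays, -1.05 and -0.92 on the untreated clone arrays and -1.18 and -1.02 on the clone RA arrays. Both parental RA arrays were above all others and all 4 clone arrays were below all parental ones. The difference with RA was -2.04 ± 0.26 (SE; adjusted p = 0.00237), or 4.1-fold lower in the clone, and RA in the parental line gave 1.24 ± 0.26 (SE; adjusted p = 0.0846), which did not pass. The other probe of Cdc6 gave -1.89 with RA, 2.70 for RA in the parental line and 0.64 untreated, where the probe used gave -0.68, so the direction of the untreated line difference depends on the probe.

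Orc2, a core subunit of the origin recognition complex, read 1.41 and 1.40 on the untreated parental arrays, 1.64 and 2.02 on the parental RA arrays, 0.75 and 0.98 on the untreated clone arrays and -0.12 and -0.19 on the clone RA arrays. The clone arrays lay below all parental arrays, and within the clone both RA arrays lay below both untreated ones. The line difference was -1.98 ± 0.27 (SE; adjusted p = 0.00294) with RA and -0.54 ± 0.27 (SE; adjusted p = 0.285) untreated. Orc5, another subunit, read 0.28 and -0.14 untreated and 0.06 and 0.69 with RA in the parental line, and -0.24 and 0.19 untreated and -1.07 and -0.73 with RA in the clone. Its line difference with RA was -1.28 ± 0.35 (SE; adjusted p = 0.0391), and this call was lost without any 1 of 6 arrays: at 0.0602 and 0.0599 without untreated parental replicate 1 and 2, at 0.145 without parental RA replicate 2 (where the difference was -0.96), at 0.0650 without either untreated clone array, and at 0.124 without clone RA replicate 1. Orc4 went the other way in the untreated lines, at -0.93 and -0.76 untreated and -0.24 and -0.38 with RA in the parental line, and 0.13 and 0.73 untreated and -0.11 and 0.40 with RA in the clone. All 4 clone arrays lay above all 4 parental arrays, and the line difference was 1.27 ± 0.33 (SE; adjusted p = 0.0567) untreated and 0.46 ± 0.33 (SE; adjusted p = 0.355) with RA. Its other probe gave 0.55 untreated and 0.26 with RA.

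Geminin read 1.58 and 1.47 on the untreated parental arrays, 2.09 and 1.45 on the parental RA arrays, 1.52 and 1.46 on the untreated clone arrays and 0.48 and 0.48 on the clone RA arrays. Only the clone RA arrays stood apart, below the other 6, and the line difference with RA was -1.29 ± 0.30 (SE; adjusted p = 0.0230), or 2.44-fold lower; it was lost without parental RA replicate 1 (-0.97, adjusted p = 0.0718), clone RA replicate 1 (-1.28, 0.0631), and untreated clone replicate 1 (0.0505) or 2 (0.0504). Its target Cdt1 read 5.99 and 6.02 on the untreated parental arrays, 6.55 and 5.74 on the parental RA arrays, 5.83 and 5.55 on the untreated clone arrays and 5.11 and 5.19 on the clone RA arrays. The clone RA arrays were again the lowest, but the difference with RA, -1.00 ± 0.33 (SE; adjusted p = 0.0741), did not pass until parental RA replicate 2 was left out (-1.40, adjusted p = 0.0332). The remaining licensing genes, Orc1, Orc3 and Orc6, differed by -1.10, -1.03 and -0.26 between the lines with RA, none of them called. The probes of Orc3 disagreed, the other giving 0.72.

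The MCM genes encode the ring that unwinds DNA, and Mcm10 a factor that helps to start it. All 7 had RA arrays wholly above the untreated ones in the parental line and wholly below them in the clone, with median differences of 0.64 and -0.50, though none of these differences passed. Of all features 4.37% showed this pattern, which cannot be told apart from slide row. With RA, 2 of 7 fell in the clone, Mcm3 and Mcm10, with a median of -0.79, where 10.2% of all features fell. Mcm3 read 4.18 and 4.22 on the untreated parental arrays, 5.35 and 4.74 on the parental RA arrays, 3.90 and 3.75 on the untreated clone arrays and 3.27 and 3.37 on the clone RA arrays. Both parental RA arrays were the highest and both clone RA arrays the lowest, and the difference with RA was -1.73 ± 0.30 (SE; adjusted p = 0.00724), or 3.31-fold lower in the clone. Mcm10 read 2.96 and 2.83 untreated and 4.29 and 3.70 with RA in the parental line, and 3.27 and 3.24 untreated and 2.53 and 2.35 with RA in the clone. In the untreated cells its clone arrays were the higher ones, at 0.36 ± 0.29 (SE; adjusted p = 0.536), and with RA they were lower by 2.93-fold, at -1.55 ± 0.29 (SE; adjusted p = 0.0108).

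Mcm2 read 2.95 and 2.42 on the untreated parental arrays, 3.17 and 3.47 on the parental RA arrays, 3.49 and 3.34 on the untreated clone arrays and 2.67 and 3.00 on the clone RA arrays. Its untreated clone arrays were above its untreated parental arrays, at 0.73 ± 0.31 (SE; adjusted p = 0.208), and its difference with RA was -0.49 ± 0.31 (SE; adjusted p = 0.295), neither of which passed. Mcm5 read 3.48 and 3.74 untreated and 4.44 and 4.80 with RA in the parental line, and 4.28 and 4.48 untreated and 3.67 and 3.99 with RA in the clone, with the highest level in parental RA replicate 2 and the lowest in untreated parental replicate 1. RA in the parental line gave 1.01 ± 0.29 (SE; adjusted p = 0.164) for Mcm5 and in the clone -0.55 ± 0.29 (SE; adjusted p = 0.323). Mcm4, Mcm6 and Mcm7 differed between the lines with RA by -0.79, 0.08 and -0.83, and Mcm6, the MCM gene with no negative difference there, had arrays that overlapped.

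**Figure D4:**
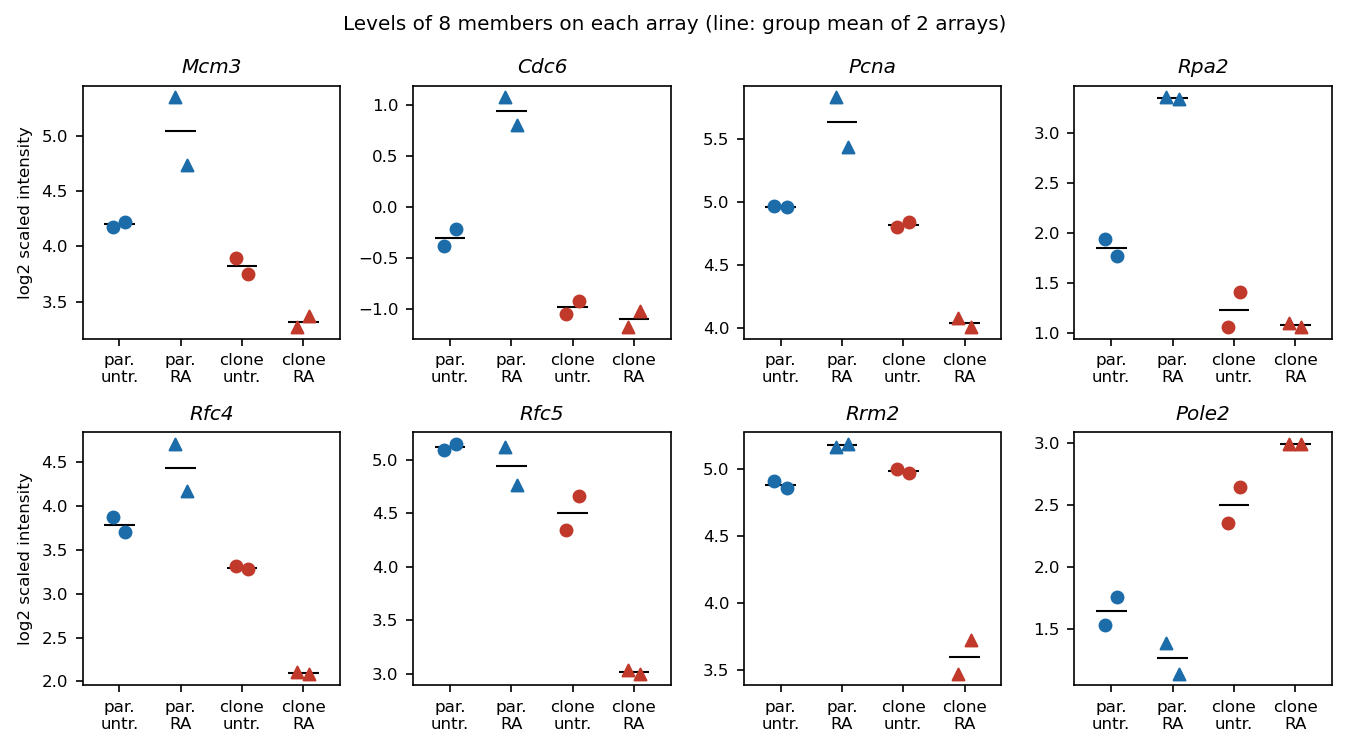
Log2 scaled intensity of 8 genes on each array (y axis, a separate scale in each panel), with blue for the parental line and red for the clone, circles for untreated and triangles for RA, and a line at the mean of the 2 arrays of a group. Clone RA arrays are the lowest for Mcm3, Pcna, Rfc4, Rfc5 and Rrm2, for Rpa2 and Cdc6 the parental RA arrays stand above all others, and for Pole2 the clone RA arrays are the highest.

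The helicase is activated by Cdc45 and the GINS proteins, which join the MCM ring, and by the kinase Cdc7 with its partner Dbf4. All 7 of these genes had negative line differences with RA, with a median of -1.03, and 1 of them, Gins1, passed, where 10.2% of all features fell. Gins1 read 2.74 and 2.95 on the untreated parental arrays, 2.89 and 2.67 on the parental RA arrays, 2.31 and 2.67 on the untreated clone arrays and 1.27 and 1.48 on the clone RA arrays. The clone RA arrays were below the other 6, and the line difference was -1.40 ± 0.28 (SE; adjusted p = 0.0129) with RA and -0.35 ± 0.28 (SE; adjusted p = 0.517) untreated; without parental RA replicate 1 the first was -1.30 with an adjusted p of 0.0522. Gins3 read 6.87 and 6.48 untreated and 6.52 and 6.10 with RA in the parental line, and 5.79 and 6.17 untreated and 5.71 and 5.66 with RA in the clone. Its line differences were -0.69 ± 0.30 (SE; adjusted p = 0.228) untreated and -0.63 ± 0.30 (SE; adjusted p = 0.187) with RA, and it is 1 of the 2 genes of the set, with Pole2, whose RA difference was not lower in the clone than in the parental line. Cdc45 read -2.40 and -0.90 untreated and -0.76 and 0.16 with RA in the parental line, and -0.95 and -1.15 untreated and -1.52 and -1.55 with RA in the clone. Its untreated parental arrays lay far apart, and RA in the parental line, at 1.35 ± 0.53 (SE; adjusted p = 0.311), did not pass. Gins2, Gins4, Cdc7 and Dbf4 differed between the lines with RA by -0.05, -0.70, -1.03 and -1.38, none called, and the other probe of Cdc7 gave -1.72.

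DNA polymerase alpha with primase starts each strand, and polymerases delta and epsilon extend the lagging and the leading strand. With RA, 8 of the 9 genes had negative line differences, with a median of -0.79, but none of these passed. The 1 that passed, Pole2, was higher in the clone. Among all features 10.2% fell and 12.9% rose in this comparison, so 1 of 9 higher is near the share of all features. Pole2, the accessory subunit of polymerase epsilon, read 1.53 and 1.76 on the untreated parental arrays, 1.39 and 1.14 on the parental RA arrays, 2.35 and 2.64 on the untreated clone arrays and 2.99 and 2.99 on the clone RA arrays. All 4 clone arrays were above all 4 parental arrays, the clone RA arrays the highest and the parental RA arrays the lowest. Its line difference was 1.72 ± 0.27 (SE; adjusted p = 0.00522) with RA and 0.85 ± 0.27 (SE; adjusted p = 0.107) untreated. The catalytic subunit gene of the same enzyme, Pole, differed by -0.63 with RA and its other probe by -0.56.

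Pola1, the catalytic subunit of polymerase alpha, read 1.75 and 1.02 on the untreated parental arrays, 2.60 and 1.80 on the parental RA arrays, 2.09 and 2.06 on the untreated clone arrays and 0.82 and 1.15 on the clone RA arrays. Both clone RA arrays were below both untreated clone and both parental RA arrays, with untreated parental replicate 2 between them, and RA in the clone gave -1.09 ± 0.39 (SE; adjusted p = 0.166) and the line difference with RA -1.22 ± 0.39 (SE; adjusted p = 0.0635). Pola2, its accessory subunit, read -1.55 and -1.46 untreated and -1.48 and 0.17 with RA in the parental line, and -2.34 and -2.42 untreated and -2.17 and -2.30 with RA in the clone. All 4 clone arrays were below all 4 parental ones; the line difference was -1.58 ± 0.51 (SE; adjusted p = 0.0644) with RA, and -2.41 with an adjusted p of 0.00747 without parental RA replicate 1, so it rests on which of the parental RA arrays is kept. The average difference, -1.23 ± 0.36 (SE; adjusted p = 0.0424), was lost without any 1 of 5 arrays, at adjusted p of 0.0533 to 0.117.

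Prim1, the catalytic subunit of primase, read 5.38 and 5.27 on the untreated parental arrays, 5.40 and 4.83 on the parental RA arrays, 5.40 and 5.50 on the untreated clone arrays and 4.35 and 4.34 on the clone RA arrays. The clone RA arrays stood below the other 6, RA in the clone gave -1.11 ± 0.29 (SE; adjusted p = 0.0832), and the line difference with RA was -0.77 ± 0.29 (SE; adjusted p = 0.100). Pold3, a subunit of polymerase delta, read 3.04 and 2.94 untreated and 3.95 and 3.36 with RA in the parental line, and 3.10 and 2.95 untreated and 2.74 and 2.91 with RA in the clone. RA in the parental line gave 0.66 ± 0.30 (SE; adjusted p = 0.381) with arrays that did not overlap, and the line difference with RA was -0.83 ± 0.30 (SE; adjusted p = 0.0891). Prim2, Pold1 and Pold2 differed with RA by -1.07, -0.23 and -0.79 between the lines.

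The clamp Pcna tethers polymerases to DNA, replication factor C (Rfc1 to Rfc5) loads it, and replication protein A (Rpa1 to Rpa3) covers single-stranded DNA. With RA, 5 of these 9 genes fell in the clone against the parental line and none rose. This is the most calls of any role group by number, while the nucleotide genes, at 4 of 5, had a larger share. The median of the 9 genes was -1.45, and 10.2% of all features fell. Rpa2 read 1.94 and 1.77 on the untreated parental arrays, 3.36 and 3.34 on the parental RA arrays, 1.06 and 1.41 on the untreated clone arrays and 1.10 and 1.06 on the clone RA arrays. Both parental RA arrays were far above the other 6, and in the clone the arrays of both treatments overlapped, at -0.16 ± 0.26 (SE; adjusted p = 0.775). The line difference was -2.28 ± 0.26 (SE; adjusted p = 0.00159) with RA, or 4.84-fold lower in the clone. For its partners Rpa1 and Rpa3 the same log2 difference was -0.58 and -0.90, neither called.

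Rfc4 read 3.88 and 3.70 on the untreated parental arrays, 4.71 and 4.17 on the parental RA arrays, 3.32 and 3.28 on the untreated clone arrays and 2.11 and 2.09 on the clone RA arrays. Every clone array was below every parental array, the line difference was -2.34 ± 0.29 (SE; adjusted p = 0.00193) with RA, or 5.07-fold, and -0.49 ± 0.29 (SE; adjusted p = 0.366) untreated, and its other probe gave -2.01 with RA. Rfc5 read 5.09 and 5.15 on the untreated parental arrays, 5.12 and 4.77 on the parental RA arrays, 4.34 and 4.66 on the untreated clone arrays and 3.03 and 3.00 on the clone RA arrays. In the parental line its arrays overlapped between treatments, while RA in the clone gave -1.49 ± 0.27 (SE; adjusted p = 0.0347), or 2.8-fold lower, and the line difference with RA was -1.93 ± 0.27 (SE; adjusted p = 0.00347). Rfc2 read 3.50 and 3.61 untreated and 3.95 and 3.97 with RA in the parental line, and 2.93 and 2.98 untreated and 2.43 and 2.58 with RA in the clone. All 4 clone arrays were below all 4 parental ones, with a line difference of -1.45 ± 0.25 (SE; adjusted p = 0.00713) with RA and -0.60 ± 0.25 (SE; adjusted p = 0.203) untreated. Rfc1, the large subunit, had overlapping arrays with RA at a line difference of -0.02, and that of Rfc3 was -1.23 ± 0.41 (SE; adjusted p = 0.0733).

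Pcna, often used as a marker of proliferating cells, read 4.97 and 4.96 on the untreated parental arrays, 5.83 and 5.44 on the parental RA arrays, 4.80 and 4.84 on the untreated clone arrays and 4.08 and 4.01 on the clone RA arrays. The untreated arrays of both lines lay close together, the parental RA arrays above them and the clone RA arrays below. The line difference was -1.59 ± 0.27 (SE; adjusted p = 0.00660) with RA, or 3.02-fold lower in the clone, and -0.14 ± 0.27 (SE; adjusted p = 0.800) untreated. RA gave 0.67 ± 0.27 (SE; adjusted p = 0.314) in the parental line and -0.78 ± 0.27 (SE; adjusted p = 0.152) in the clone, neither past the threshold.

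Fen1 removes the flaps left between lagging strand fragments and Lig1 seals the nicks. Neither was called in any of the 6 comparisons. Fen1 read 4.35 and 4.11 on the untreated parental arrays, 4.95 and 4.37 on the parental RA arrays, 4.31 and 4.31 on the untreated clone arrays and 3.85 and 3.96 on the clone RA arrays. Lig1 read 4.19 and 4.38 untreated and 4.18 and 3.87 with RA in the parental line, and 4.20 and 4.19 untreated and 3.41 and 3.26 with RA in the clone. The clone RA arrays were the lowest of the 8 for both genes, and the line differences with RA were -0.75 ± 0.30 (SE; adjusted p = 0.114) for Fen1 and -0.69 ± 0.26 (SE; adjusted p = 0.107) for Lig1.

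The nucleotide genes encode the large and small subunits of ribonucleotide reductase (Rrm1 and Rrm2), thymidylate synthase (Tyms), thymidine kinase (Tk1) and dUTPase (Dut), which keeps uracil out of DNA. With RA, 4 of 5 fell in the clone against the parental line, where 10.2% of all features fell. The median was -1.58, the lowest of the role groups. Rrm2 read 4.91 and 4.86 on the untreated parental arrays, 5.17 and 5.19 on the parental RA arrays, 5.00 and 4.97 on the untreated clone arrays and 3.47 and 3.72 on the clone RA arrays. The other 6 arrays lay close together and both clone RA arrays stood below them. RA in the clone gave -1.39 ± 0.25 (SE; adjusted p = 0.0335), or 2.62-fold lower, and the line difference with RA was -1.58 ± 0.25 (SE; adjusted p = 0.00550) against 0.10 ± 0.25 (SE; adjusted p = 0.858) untreated. Rrm1 read 4.65 and 4.69 on the untreated parental arrays, 5.22 and 5.08 on the parental RA arrays, 4.55 and 4.68 on the untreated clone arrays and 3.34 and 3.66 on the clone RA arrays. Its clone RA arrays too lay below the other 6, with a line difference of -1.65 ± 0.26 (SE; adjusted p = 0.00544) with RA and an RA difference in the clone of -1.12 ± 0.26 (SE; adjusted p = 0.0634).

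Dut read 4.19 and 3.78 untreated and 4.52 and 4.52 with RA in the parental line, and 3.80 and 4.06 untreated and 2.57 and 3.09 with RA in the clone. Its clone RA arrays differed from each other yet both lay below the other 6, and the line difference with RA was -1.69 ± 0.31 (SE; adjusted p = 0.00912), or 3.23-fold lower. Tk1, which salvages thymidine, read 5.01 and 4.93 on the untreated parental arrays, 4.79 and 4.35 on the parental RA arrays, 3.95 and 4.09 on the untreated clone arrays and 3.20 and 2.83 on the clone RA arrays. All clone arrays were below all parental arrays, and RA arrays were below untreated ones in both lines, which sets it apart from most of the set. The line difference was -1.55 ± 0.29 (SE; adjusted p = 0.0102) with RA and -0.95 ± 0.29 (SE; adjusted p = 0.0956) untreated, the lowest untreated value of the 48. Tyms, in contrast to the other nucleotide genes, was at -0.48 ± 0.30 (SE; adjusted p = 0.287) with RA. Its 1 probe was above background on all 8 arrays but much dimmer, with group means of -1.40 to -0.92. The other nucleotide genes read 2.57 or higher on every array.

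Genes near the set in function were counted in the same way, from lists chosen by name with earlier results of these data known. Of 24 other fork and origin genes, 9 fell and 1 rose in the clone against the parental line with RA, with a median of -0.85. Of all features 10.2% fell and 12.9% rose in this comparison. The genes with the smallest p were Pole3, a histone-fold subunit of polymerase epsilon, at -2.92 ± 0.27 (SE; adjusted p = 0.000675), the helicase gene Recql4 at -2.36 ± 0.25 (SE; adjusted p = 0.00111), the checkpoint mediator Clspn at -2.47 ± 0.28 (SE; adjusted p = 0.00141) and the origin firing factor Ticrr at -2.00 ± 0.30 (SE; adjusted p = 0.00405). Pole3 was thus lower where Pole2 was higher, and it was lower in the untreated clone too, at -1.39 ± 0.27 (SE; adjusted p = 0.0222), a call lost without any 1 of the 4 untreated arrays. Recql4 also fell with RA in the clone, at -2.11 ± 0.25 (SE; adjusted p = 0.0168); without untreated clone replicate 1 or 2 its adjusted p was 0.105 or 0.162. Of 20 other nucleotide genes, 2 fell and none rose, a share near the 10.2% of all features that fell, with a median of -0.50: Shmt1, which feeds folate metabolism, at -1.62 ± 0.27 (SE; adjusted p = 0.00650), and the pyrophosphatase gene Dctpp1 at -1.71 ± 0.31 (SE; adjusted p = 0.00940). Of 11 genes of chromatin replication, 3 fell, led by the histone chaperone gene Asf1b at -2.14 ± 0.27 (SE; adjusted p = 0.00229), with a median of -1.02; 1 fell without parental RA replicate 2.

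Regulators of S phase entry and mitotic genes were counted too. Of 27 tested regulators, 13 fell and none rose in the clone against the parental line with RA, where 10.2% of all features fell. There were 23 negative and 4 positive differences, with a median of -0.93. The regulators that fell included E2f2 at -2.87 ± 0.25 (SE; adjusted p = 0.000541), E2f8 at -3.11 ± 0.30 (SE; adjusted p = 0.000793) and E2f7 at -2.90 ± 0.30 (SE; adjusted p = 0.000992), which was -1.71 with the mean of its probes. Cdkn1a, the cyclin-dependent kinase inhibitor p21, stood at -3.27 ± 0.35 (SE; adjusted p = 0.00114) and fell with RA in the clone by a log2 difference of -2.54 ± 0.35 (SE; adjusted p = 0.0210). Without untreated clone replicate 1 or 2 the latter had an adjusted p of 0.128 or 0.172. The difference between the lines in its RA response, which cannot be told apart from slide row, was -4.15 ± 0.49 (SE; adjusted p = 0.0416), and this call was lost without any 1 of the 4 parental and 2 untreated clone arrays (adjusted p of 0.0881 to 0.250), and also under normexp (0.103). In the untreated clone 3 regulators fell, where 3.70% of all features did. They were the D-type cyclin gene Ccnd2 at -3.99 ± 0.48 (SE; adjusted p = 0.00319), Myb at -1.82 ± 0.33 (SE; adjusted p = 0.0161) and E2f8 at -1.65 ± 0.30 (SE; adjusted p = 0.0171). Ccnd2 stood at -1.77 under normexp (adjusted p = 0.0301) and at -3.59 with a floor on dim signals. No probe of Ccnd2 was above background on every array, and the size of its difference depends on how dim signals are treated. The call of Myb was lost without any 1 of the 4 untreated arrays, and that of E2f8 without untreated parental replicate 1 or either untreated clone array.

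Of 36 mitotic genes, 27 fell in the clone against the parental line with RA, with a median of -1.59, where 10.2% of all features fell. With RA in the clone 15 fell, with a median of -1.40, where 2.05% of all features fell. The 15 became 0 without untreated clone replicate 1 or 2, 2 without untreated parental replicate 1 or 2, and 3 without clone RA replicate 1. In a fit on the 4 RA arrays alone, 13 of the mitotic genes fell between the lines, with 8 of the regulators, 5 of the fork and origin genes, 1 of the chromatin genes and 0 of the other nucleotide genes. Of all features 10.1% were called in that fit, 63.4% of them higher. In the parental line with RA none of the 36 passed in limma, 2 were higher and 2 lower at an unadjusted p under 0.05, and the median was -0.09, where that of the replication genes was 0.38. Relative to each gene's mean, the mitotic median was 0.54 and 0.48 on the untreated parental, 0.39 and 0.43 on the parental RA, 0.15 and 0.37 on the untreated clone, and -1.23 and -1.05 on the clone RA arrays. On this scale the mitotic genes were lower in the clone RA group than the replication genes and were not higher with RA in the parental line. The difference between these lists was not tested.

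**Figure D5:**
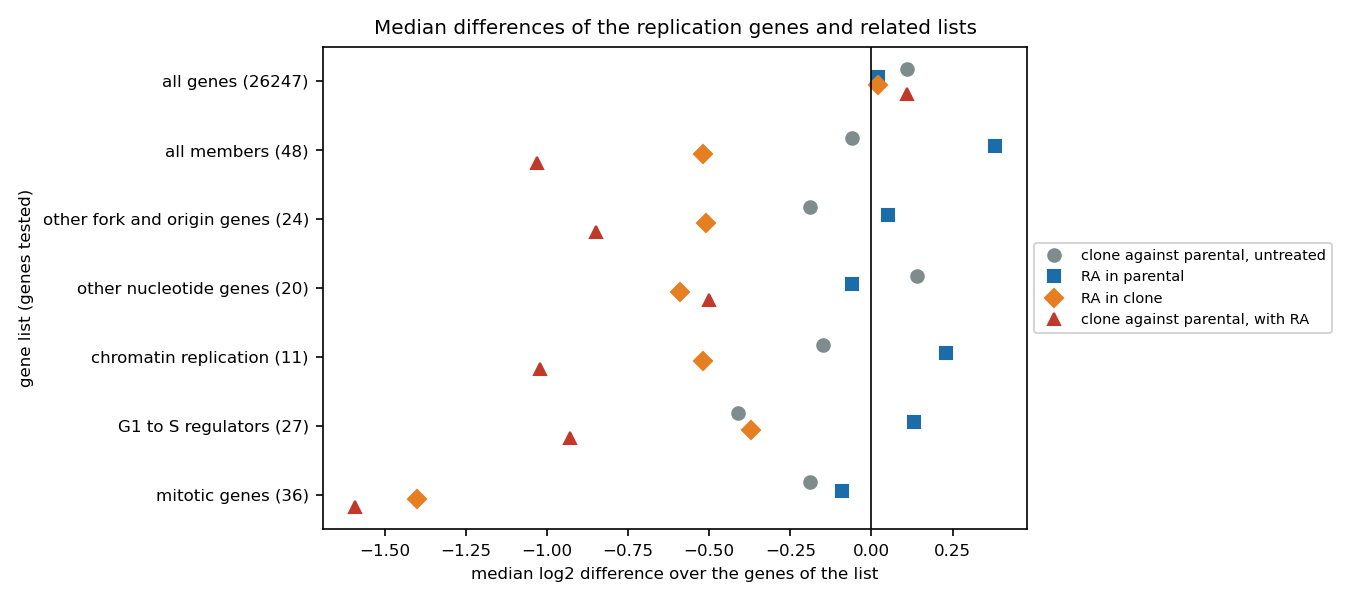
Median log2 difference over the genes of each list (y axis, number tested in brackets) in 4 comparisons, marked by shape and colour. For the replication genes (all members) the median is -0.06 untreated, 0.38 for RA in the parental line, -0.52 for RA in the clone and -1.03 between the lines with RA, while the mitotic genes stand at -1.59 between the lines with RA.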

How the data were processed

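RNA of 8 samples was hybridised to Agilent mouse arrays of design 028005, 1 colour, 8 arrays on 1 slide. Per the file headers, the authors' scanner files hold intensity values from Feature Extraction 10.7.3.1, background-subtracted and detrended within an array and not scaled between arrays. The deposited series table holds log2 values of the same arrays, which served as an alternative. Here each array was scaled as log2 of the processed intensity minus the 75th percentile over non-control spots. Control spots (3671 of 62976) and 99 to 281 outlier spots per array were left out and spots of a probe averaged. Of 55681 probes, the 36619 that passed the scanner's test of being well above background on 2 or more of the 8 arrays were kept, and the brightest probe stood for a gene. Of the 48 genes, 42 have 1 probe and 6 have 2 (Orc3, Orc4, Cdc6, Cdc7, Pole and Rfc4); 47 of the probes used were above background on all 8 arrays, the probe of Cdc7 not, and none was saturated. The number of arrays limits the precision. Genes were named through RefSeq accessions (GRCm38.p6). limma 3.58.1 in R 4.3.3 fitted 1 mean for each of the 4 groups and 6 contrasts, with empirical Bayes variances and Benjamini-Hochberg adjustment over 26247 features, and was tested on simulated data.

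Values on all arrays are given for members with an adjusted p under 0.05 in any of the 6 comparisons, for the member with the smallest p in each of the 7 role groups and each comparison other than the average, and for Mcm2, Pcna, Cdt1, Gmnn and Rrm2. Other genes are named only if called, at most 4 per list and comparison; Timeless, Tipin, Dscc1 and Cdkn1c were chosen after their values were seen. The members and lists were chosen with earlier results of these data known. Skp2 of the list of regulators was not measured under that name. Alternatives covered background correction, normalization, the source of the values, a floor on dim signals, the filter, the probes of a gene, the variance model, the samples in the fit, the left or right pair of columns on the slide as a block, and leaving out each array.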

Additional observations from a re-analysis of the deposited data

Results flagged for a closer look

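The median RA difference of the 48 genes was of opposite sign in the 2 lines, 0.38 in the parental line and -0.52 in the clone, and this difference between medians was not tested. The medians of all 7 role groups were of opposite sign as well. In 4 of them the array medians also separated, with both RA arrays above both untreated arrays in the parental line and below them in the clone: 0.64 and -0.50 for the MCM genes with Mcm10, 0.08 and -0.49 for the helicase activation genes, 0.41 and -0.53 for the clamp, clamp loader and RPA genes, and 0.30 and -1.10 for the nucleotide supply genes. In the other 3 they did not: 0.37 and -0.50 for origin licensing, 0.02 and -0.37 for the polymerases and primase, and 0.09 and -0.63 for lagging strand maturation. Slide row cannot be told apart from a difference between the lines in their RA response.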

How the results depend on the processing

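Keeping only probes that were above background on all 8 arrays, the counts of members called were 1 (untreated line difference), 26 (with RA), 2 (RA in parental), 9 (RA in clone) and 25 (average). The shares of all features called were 12.2%, 29.7%, 3.31%, 9.89% and 33.7%. With a trended and robust variance the counts were 3, 29, 2, 10 and 26, with 5 for the difference between responses. The shares there were 12.6%, 27.3%, 3.06%, 8.28% and 31.2%, with 1.73% for the difference between responses. Only the groups compared gave 6 called with RA, where 10.1% of features were called, and 0 for RA in clone, where no feature was. For RA in clone, normexp and no filter on dim probes gave 0, and quantile normalization gave 1 and a median of -0.33. Of all features, normexp called 1.68% there and quantile normalization 4.50%. For RA in parental, quantile normalization and the mean of probes gave 1 each, where 1.02% and 1.06% of features were called. The untreated median was -0.14 with quantile normalization. Leaving out 1 array gave 0 to 1 calls untreated, 0 to 1 for RA in parental, 0 to 2 for RA in clone and 10 to 17 for the average. The medians then ran from -0.14 to 0.01 untreated (0.01, the reverse sign, without untreated clone replicate 1), -1.13 to -0.79 with RA, 0.35 to 0.49 for RA in parental, -0.68 to -0.44 for RA in clone and -1.08 to -0.78 for the difference between responses. No other median changed sign in the alternatives run. The cause was not tested, beyond fewer genes or samples entering where the setting says so. Of 35 called values of named members, none changed sign in 614 refits, 533 kept the call and 81 lost it. Of 139 values not called, 56 of 2460 refits made a call. Many of these refits leave the differences, and so their medians, as they were. Another variance model does so, as does leaving out an array that is not in the comparison. The sign could not change there, so such refits bear only on the call. The median of all features itself moved by more than 0.1 with scaling: under quantile normalization with RA from 0.11 to -0.14, where that of the members was -0.96, for RA in clone from 0.02 to -0.13, for the difference between responses from -0.02 to -0.15 and for the average from 0.12 to -0.04, and under normexp for the average from 0.12 to -0.06, from 0.11 to -0.19 untreated, from 0.02 to -0.22 for RA in parental and from -0.02 to 0.20 for the difference between responses. The labels give no pairing of samples, as they number the samples from 1 to 8 and share no replicate numbers between groups. A block for the left or right pair of columns on the slide, each with 1 array of every group, was fitted as well. It gave 20 members called with RA and 2 for RA in clone, where 23.2% and 4.33% of features were called.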

Other observations

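A few genes of the fork, chosen after their values were seen, were higher in the clone, as Pole2 was. Timeless, which couples the helicase to the polymerases, stood at 1.27 ± 0.26 (SE; adjusted p = 0.0150) in the clone against the parental line with RA and at 0.99 ± 0.26 (adjusted p = 0.0640) untreated; the first had an adjusted p of 0.0547 without parental RA replicate 2 and 0.0921 in a fit on the 4 RA arrays alone. Its partner Tipin stood at -1.13 ± 0.36 (adjusted p = 0.0648) with RA. Dscc1, of an alternative clamp loader, stood at 0.79 ± 0.18 (adjusted p = 0.0195) averaged over both treatments, a call lost without any 1 of the 4 untreated arrays. With RA in the clone, 1 of 27 tested regulators of S phase entry rose and 5 fell, where 2.58% of all features rose and 2.05% fell. The 1 that rose was the cyclin-dependent kinase inhibitor gene Cdkn1c, at 1.51 ± 0.32 (adjusted p = 0.0467). That call was lost in 13 of 17 alternatives, among them normexp (0.63, adjusted p = 0.654), untreated clone replicate 1 or 2 left out (0.182 or 0.277) and clone RA replicate 1 left out (0.118). It stood at 0.91 ± 0.32 (adjusted p = 0.244) with RA in the parental line.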
